A study of Caenorhabditis elegans with 2 samples.

Results

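The vitellogenin genes of Caenorhabditis elegans, vit-1 to vit-6, carried scattered SNPC-4 ChIP signal in the gene or within 500 bp. For 2 of the 6, a summit in that window passed the authors' reproducibility filter (12.7% of all protein-coding genes, 18.0% of those of at least 3 kb). That of vit-5 lay past the gene end, inside unc-78. Of 35 candidate summits in the pooled reads, 2 reached the lowest signal that passed this filter. The strongest summit of each gene had a median of 2.71 times the median candidate signal, against 1.12 over genes of at least 3 kb. The 6 genes were chosen by their name, with earlier results of these data known, out of 19973 protein-coding genes on the nuclear chromosomes. SNPC-4 is a DNA-binding subunit of SNAPc, the complex that recruits polymerases to small nuclear RNA genes and, in nematodes, takes part in piRNA transcription. Chromatin was taken from whole hermaphrodites of strain YL551 at the young adult stage, 60 hours after starved L1 larvae were released, as 2 biological replicates of 1 group. Both replicates carry a stably expressed transgene of SNPC-4 with GFP-FLAG at its C-terminus, and an anti-GFP antibody was used after sonication. Binding in intestinal nuclei and in other nuclei of the whole animal cannot be told apart, and no transcript levels were measured here.

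Vitellogenins are the yolk precursor proteins, large lipoproteins related to vertebrate apolipoprotein B. The adult hermaphrodite intestine transcribes their genes at very high rates and secretes the proteins into the body cavity, from where oocytes take them up through the receptor RME-2. The products of vit-1 to vit-5 are close relatives, while the vit-6 product is cut into a pair of smaller yolk proteins. RNA polymerase II transcribes all of them, and they are not among the small RNA genes for which SNAPc is known.

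The values are peak scores. The thresholded list, whose regions passed an irreproducible discovery rate (IDR) filter, held 2950 summits with a signal of 84.4 or more. The candidate lists of the pooled reads, of replicate 1 and of replicate 2 held 30000 summits each, with median signals of 27.2, 16.4 and 17.7. A relative signal below is the signal divided by the median candidate signal of its own list, so that 1 is a typical candidate and the replicates can be set side by side. Read counts were not given, so the depth behind each value is unknown. With 1 group there is no test between conditions, and p-values are not given. All positions are 1-based in ce11 (WBcel235), and distances run in the direction of transcription from the annotated gene start.

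The genes are of nearly equal size. The first, vit-1 (WBGene00006925, X 7727889 to 7733168), is 5280 bp long, and vit-2 (WBGene00006926, X 5101042 to 5106169) is 5128 bp long, both on the plus strand. The minus-strand genes vit-3 (WBGene00006927, X 3567355 to 3572549, 5195 bp) and vit-4 (WBGene00006928, X 3558769 to 3563965, 5197 bp) follow each other with 3389 bp between them. On the plus strand lie vit-5 (WBGene00006929, X 3403471 to 3408603, 5133 bp) and vit-6 (WBGene00006930, IV 8261157 to 8266459, 5303 bp). Each has 5 or 6 exons. At the 3' side, vit-1, vit-5 and vit-6 face a gene on the other strand across 165, 70 and 184 bp (set-12, unc-78 and K07H8.8), and vit-2 overlaps the end of C42D8.9 by 11 bp.

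The 250 bases before each annotated start are shown because part of the signal lies around the starts and because the elements known to drive these promoters lie there. Capitals mark the elements VPE1 and VPE2 described for vitellogenin promoters, found on either strand. VPE1 was searched as TGTCAAT. For VPE2, which intestinal zinc-finger factors bind, the letters were CTGATAA. Each sequence runs 5' to 3' along the strand of the gene and comes from the RefSeq WBcel235 genome.
vit-1, chrX:7727639-7727888, plus strand: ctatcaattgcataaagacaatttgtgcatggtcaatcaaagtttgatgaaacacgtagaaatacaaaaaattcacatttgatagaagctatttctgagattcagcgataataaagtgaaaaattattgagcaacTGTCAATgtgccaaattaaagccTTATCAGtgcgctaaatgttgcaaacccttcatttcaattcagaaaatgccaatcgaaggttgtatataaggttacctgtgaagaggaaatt
vit-2, chrX:5100792-5101041, plus strand: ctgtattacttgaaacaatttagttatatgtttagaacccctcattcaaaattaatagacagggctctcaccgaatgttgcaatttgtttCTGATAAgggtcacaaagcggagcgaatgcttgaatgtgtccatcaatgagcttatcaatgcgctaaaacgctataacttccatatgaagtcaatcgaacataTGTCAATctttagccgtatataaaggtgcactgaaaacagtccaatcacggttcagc
vit-3, chrX:3572550-3572799, minus strand: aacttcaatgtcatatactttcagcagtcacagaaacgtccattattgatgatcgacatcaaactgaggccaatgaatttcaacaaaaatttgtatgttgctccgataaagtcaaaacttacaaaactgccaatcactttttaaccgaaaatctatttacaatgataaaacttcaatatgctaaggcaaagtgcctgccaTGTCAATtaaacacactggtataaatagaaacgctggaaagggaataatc
vit-4, chrX:3563966-3564215, minus strand: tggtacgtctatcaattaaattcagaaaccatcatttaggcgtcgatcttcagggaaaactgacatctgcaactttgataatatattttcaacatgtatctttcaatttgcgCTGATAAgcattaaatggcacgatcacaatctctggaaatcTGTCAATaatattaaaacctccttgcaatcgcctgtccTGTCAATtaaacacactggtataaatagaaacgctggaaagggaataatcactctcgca
vit-5, chrX:3403221-3403470, plus strand: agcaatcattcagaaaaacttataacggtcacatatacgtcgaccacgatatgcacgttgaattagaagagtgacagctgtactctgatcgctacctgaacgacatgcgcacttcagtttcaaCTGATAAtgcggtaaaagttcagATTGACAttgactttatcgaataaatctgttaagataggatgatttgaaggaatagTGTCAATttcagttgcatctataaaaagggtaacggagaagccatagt
vit-6, chrIV:8260907-8261156, plus strand: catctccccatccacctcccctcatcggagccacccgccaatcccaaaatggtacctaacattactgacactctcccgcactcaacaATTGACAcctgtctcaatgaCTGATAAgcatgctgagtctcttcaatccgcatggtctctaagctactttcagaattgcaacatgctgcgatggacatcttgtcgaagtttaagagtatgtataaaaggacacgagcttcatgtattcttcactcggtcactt

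All 6 upstream sequences held VPE1, with 8 matches in all, against 4.81% of the same window over all 19973 protein-coding genes. VPE2 was in 5 of them, all but vit-3, against 7.20% of all genes, and 5 of 6 held both elements, against 0.396% of all genes. Both elements were described for vitellogenin promoters, so these shares are no new result and do not bear on SNPC-4. The letters TATAAA were in 5 of 6 (35.2% of all genes), all but vit-1. The core of the piRNA promoter motif, CTGTTTCA, was in none of the 6 windows on either strand, against 2.02% of all genes. Counted from the annotated start, the VPE1 matches lay between positions -163 and -42 and the VPE2 matches between positions -160 and -86. Within 100 bp of the 2 thresholded summits described next, CTGTTTCA was again not found (0 matches at each), while VPE1 had 1 match near the vit-5 summit and 0 near the vit-2 summit.

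Of the 6 genes, vit-2 and vit-5 had a thresholded summit in the gene or within 500 bp of it, which is 33.3%, against 12.7% of all protein-coding genes and 18.0% of the 6432 protein-coding genes of at least 3 kb. With 1 gene fewer the share would lie below that of the genes of at least 3 kb. The vit-2 summit lay at X 5101099, 57 bp downstream of the start in the first coding exon, with a pooled signal of 96.9 and rank 2485 of the pooled list. The vit-5 summit lay at X 3408906, 303 bp past the end of the gene and inside a coding exon of unc-78, which encodes an actin-filament disassembly factor, with a pooled signal of 106 and rank 2203. Both signals lie below the median of the thresholded list, 141. At a distance of 250 bp, where vit-5 drops out, the number fell to 1 gene (9.87% of all protein-coding genes). It was also 1 when summits inside another gene were left out. Read by zone, 1 of 6 genes had a thresholded summit within 500 bp of the start (8.32% of genes of at least 3 kb), 0 of 6 in the body between the end zones (7.40%) and 1 of 6 within 500 bp of the end (4.32%).

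Each replicate taken alone named a different set. Among its 2950 strongest regions, replicate 1 had a summit at vit-5 alone (1 of 6, against 17.0% of genes of at least 3 kb). Replicate 2 had summits at vit-2, vit-3 and vit-5 (3 of 6, against 18.4%). Only vit-5 was in both sets. The strongest vit-2 summit had rank 3120 in replicate 1 and 2668 in replicate 2, on either side of the cut at 2950. That of vit-3 had rank 3707 and 2125.

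The stretch at the vit-2 summit, in the first coding exon, is shown with the matching stretch of vit-1, its closest relative, because the thresholded summit fell on one copy. Capitals mark the 18 of 101 bases at which they differ.
vit-2, chrX:5101049-5101149, plus strand: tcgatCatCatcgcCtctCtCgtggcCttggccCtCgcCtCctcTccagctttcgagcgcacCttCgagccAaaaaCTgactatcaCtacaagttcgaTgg
vit-1, chrX:7727907-7728007, plus strand: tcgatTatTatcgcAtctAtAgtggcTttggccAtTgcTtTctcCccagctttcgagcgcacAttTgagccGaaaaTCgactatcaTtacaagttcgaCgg

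The strongest candidate summit of each gene, in the gene or within 500 bp, was above the typical candidate in both replicates. For vit-5 it had a signal of 68.3 in replicate 1 and 62.7 in replicate 2, a relative signal of 4.17 and 3.54 (mean 3.85 ± 0.451, SD, n = 2). For vit-2 it had a signal of 43.8 and 52.9, or 2.68 and 2.98 (2.83 ± 0.216, SD, n = 2). Both genes have a thresholded summit in the gene or within 500 bp. For vit-3 the signal was 39.2 in replicate 1 and 61.4 in replicate 2, or 2.40 and 3.46 (2.93 ± 0.755, SD, n = 2). For vit-6 it was 40.4 and 48.2, or 2.47 and 2.72 (2.59 ± 0.178, SD, n = 2). The lowest were vit-1, with 33.1 and 26.1, or 2.03 and 1.47 (1.75 ± 0.391, SD, n = 2), and vit-4, with 20.0 and 37.2, or 1.22 and 2.10 (1.66 ± 0.618, SD, n = 2). In this order, vit-5, vit-3, vit-2, vit-6, vit-1 and vit-4, the replicate ranges of vit-3, vit-2 and vit-6 overlap each other, as do those of vit-1 and vit-4, while both replicates of vit-5 lie above those of every other member. This order holds with the 500 bp on either side included. With the gene alone, vit-5 had 1.56, below vit-2 at 2.83, vit-6 at 2.59, vit-3 at 1.73 and vit-1 at 1.58, and vit-4 had 0.433. The median over the 6 genes was 2.71, against 1.12 over all 6432 genes of at least 3 kb, and 10.8% of those genes reached the value of vit-5 and 33.5% that of vit-4.

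**Figure D1:**
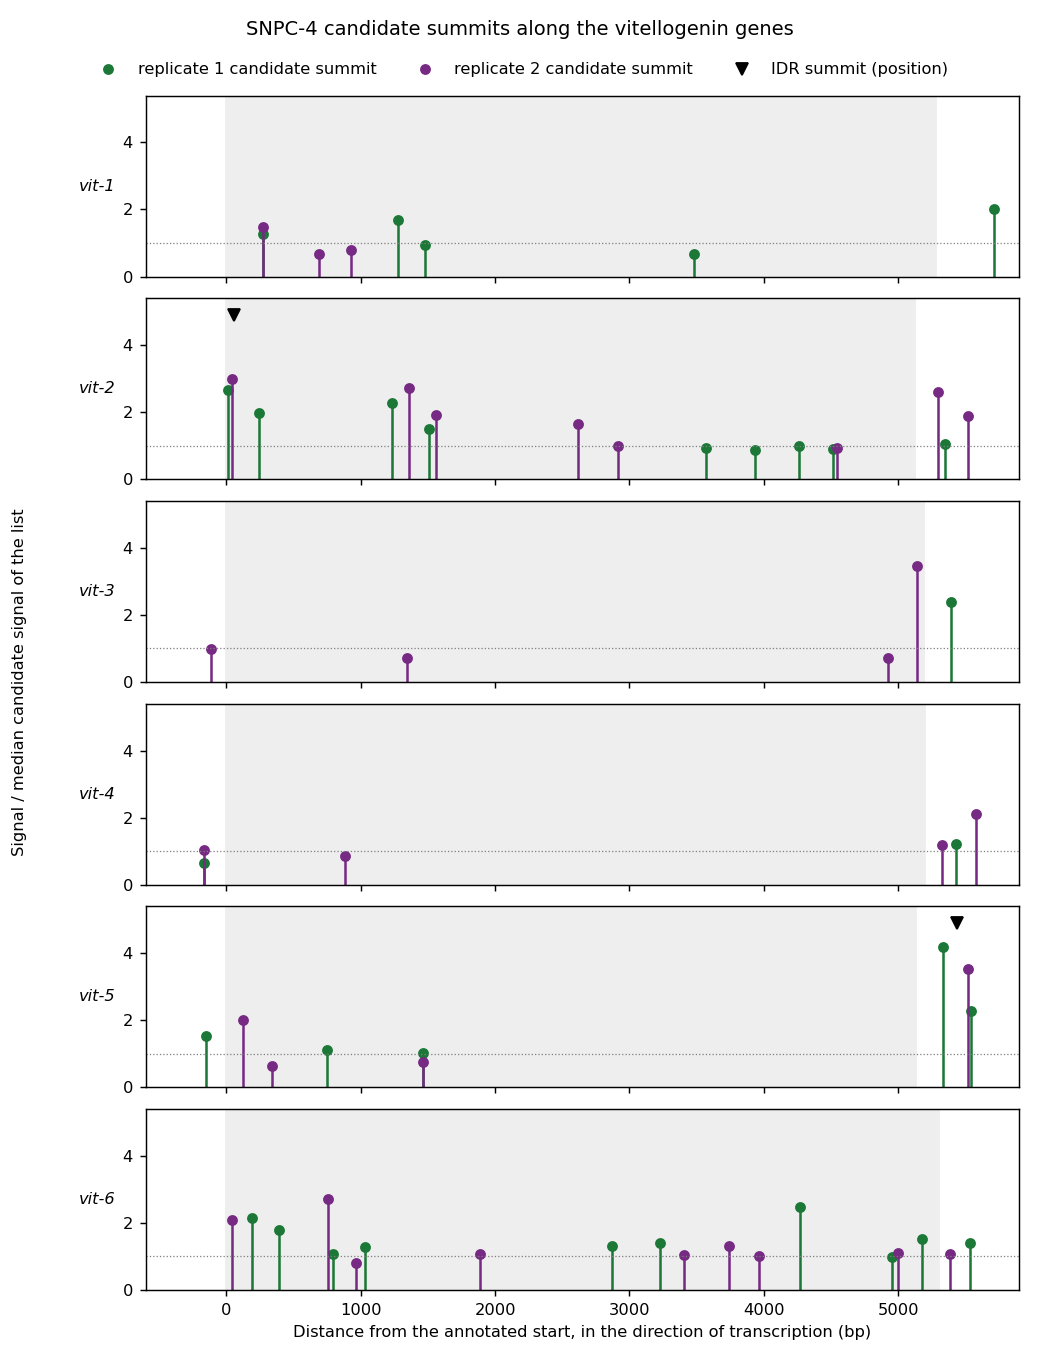
Candidate summits in the 6 vitellogenin genes and the 500 bp on either side. The x axis is the distance from the annotated start in bp, the y axis the signal divided by the median of the replicate's list (dotted line at 1), the grey band the gene, and a black triangle the position of a thresholded summit. Summits run through vit-2 and vit-6, lie mostly at the ends of vit-5, and are few in vit-3 and vit-4.

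At the 5' end, within 500 bp of the start, vit-1, vit-2, vit-4, vit-5 and vit-6 had a candidate summit in both replicates (5 of 6, against 28.3% of genes of at least 3 kb). The vit-2 summits nearest the start were 10 bp downstream in replicate 1 and 45 bp downstream in replicate 2, at 2.68 and 2.98 times the median. In vit-6 the strongest 5' summits were 190 bp and 40 bp downstream, at 2.16 and 2.08 times the median (2.12 ± 0.0568, SD, n = 2). The vit-1 summit was 270 bp downstream in both replicates and weaker, at 1.28 and 1.47. All of these summits lie inside the transcribed sequence, downstream of the promoter elements shown above. Candidate regions had a median width of 536 bp in replicate 1 and 480 bp in replicate 2. The regions of these summits at vit-2 in both replicates and at vit-6 in replicate 2 also cover the upstream VPE1 and VPE2 matches. There, signal at the promoter and signal downstream of the start cannot be told apart. In vit-5 the strongest 5' summit was at position -151 in replicate 1 (1.52) and 123 bp downstream in replicate 2 (2.00). In vit-4 it lay upstream, at positions -168 and -169, with 0.651 and 1.04, near or below a typical candidate. In vit-3 a 5' summit was listed in replicate 2 alone, at position -117 with 0.970. Annotated noncoding RNA genes, T27A10.8, F59D8.3 and K07H8.16, lie within 500 bp of vit-3, vit-4 and vit-6, each on the other strand.

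In the body, vit-1, vit-2, vit-5 and vit-6 had a candidate summit in both replicates (4 of 6, against 43.8% of genes of at least 3 kb). The pattern differed strongly among the members. The body of vit-6 held 5 summits in replicate 1 and 6 in replicate 2, with the strongest at 2.47 and 2.72 times the median (2.59 ± 0.178, SD, n = 2). These strongest summits lay 4270 bp from the start in replicate 1 and 755 bp in replicate 2, far apart. The body of vit-2 held 6 and 5 summits, with the strongest at 2.29 and 2.73 (2.51 ± 0.315, SD, n = 2), located 1233 and 1360 bp from the start. That is close to the 5' value of vit-2, and the ranges of the 5' end and the body overlapped. The body of vit-1 reached 1.70 and 0.802, that of vit-5 reached 1.12 and 0.760, and those of vit-3 and vit-4 held a single weak summit each, in replicate 2 alone (0.721 in a coding exon and 0.867 in an intron). Of the 18 pooled body summits, 0 reached the lowest thresholded signal of 84.4, and the nearest was 78.4, in vit-2.

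At the 3' end, within 500 bp of the end, vit-2, vit-3, vit-4, vit-5 and vit-6 had a candidate summit in both replicates (5 of 6, against 29.6% of genes of at least 3 kb). In vit-3 the strongest summit was here, 201 bp past the end in replicate 1 (2.40) and within the annotated 3' untranslated region in replicate 2 (3.46). In vit-4 it was also here, 233 bp past the end (1.22) and 380 bp past it (2.10). In vit-5 it was 204 and 389 bp past the end, at 4.17 and 3.54, and both positions lie inside unc-78. The vit-2 summits at 222 and 172 bp past the end had 1.06 and 2.61 times the median and lie inside C42D8.9. In vit-6 the values were 1.53 and 1.11, and vit-1 had a 3' summit in replicate 1 alone, inside set-12 and 433 bp past the end (2.03). Where a neighbour overlaps or faces the end of a gene, the signal cannot be given to one of them.

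**Figure D2:**
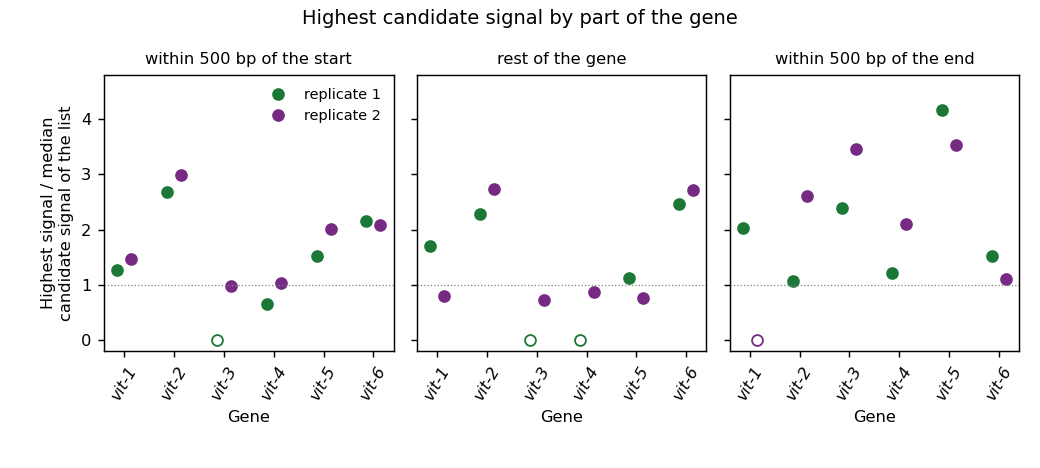
Highest relative signal of each vitellogenin gene within 500 bp of its start, in the rest of the gene and within 500 bp of its end. The y axis is the signal divided by the median of the replicate's list, filled points are replicates with a candidate summit, and open points at 0 are replicates with none. For vit-3, vit-4 and vit-5 both replicates are highest within 500 bp of the end, and vit-2 is highest within 500 bp of the start.

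Averaged over both replicates, with a zone that had no summit counted as 0, the 5' end was the strongest zone of vit-1 and vit-2 (2 genes), the body that of vit-6 (1 gene) and the 3' end that of vit-3, vit-4 and vit-5 (3 genes). For vit-1, replicate 1 alone put the 3' end first. With the gene alone cut into 3 equal parts, the counts turned to 5, 0 and 1, with vit-4, vit-5 and vit-6 strongest in the part at the 5' end. For vit-4 this rests on 1 summit, of replicate 2 alone (0.867). Zones of 250 bp gave 1, 2 and 3 genes, with vit-1 strongest in the body, and zones of 1000 bp gave 3, 0 and 3, with vit-6 strongest at the 5' end. Candidates in all 3 zones in both replicates were found in vit-2, vit-5 and vit-6 (3 of 6, against 10.7% of genes of at least 3 kb). Of the 35 pooled candidate summits of the 6 genes, 21 had a candidate of both replicates within 250 bp (60.0%, against 52.9% of all 29976 nuclear pooled summits). By zone, these 21 were 7 of 10 pooled summits at the 5' end, 7 of 18 in the body and 7 of 7 at the 3' end, against 64.2%, 44.6% and 59.8% of the pooled summits in the same zones of all genes of at least 3 kb. The body had the lowest share in both.

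The members vit-6 and vit-2 stood out by how much of the gene the candidate regions covered. Regions covered 63.1% of vit-6 in replicate 1 and 57.1% in replicate 2 (60.1% ± 4.20, SD, n = 2), and 0.295% of genes of at least 3 kb had a mean as high. They covered 55.6% and 44.8% of vit-2 (50.2% ± 7.64, SD, n = 2), a mean that 1.65% of genes reached. The other members did not reach these shares. Coverage was 34.3% and 21.5% in vit-1, 24.4% and 20.6% in vit-5, 1.29% and 21.4% in vit-3, and 2.62% and 12.8% in vit-4. The median of the 6 was 25.2%, against 11.0% over all genes of at least 3 kb.

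Summit density gave the same members at the top. Like coverage it does not use the signal, and both come from the same candidate regions, so they are not independent. In vit-6 there were 1.70 and 1.51 candidate summits per kb in replicates 1 and 2 (1.60 ± 0.133, SD, n = 2), which 0.109% of genes of at least 3 kb reached. In vit-2 there were 1.56 and 1.17 per kb (1.37 ± 0.276, SD, n = 2), which 0.669% reached. The replicate ranges of these members overlap, and neither overlaps the next, vit-1, with 0.758 and 0.568 per kb. Densities were 0.390 and 0.584 in vit-5, 0 and 0.577 in vit-3, and 0 and 0.192 in vit-4. The median of the 6 was 0.575 per kb, against 0.234 over all genes of at least 3 kb. Among the 1163 such genes of chromosome X, 0.430% reached vit-2, and among the 1057 of chromosome IV, 0.189% reached vit-6.

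**Figure D3:**
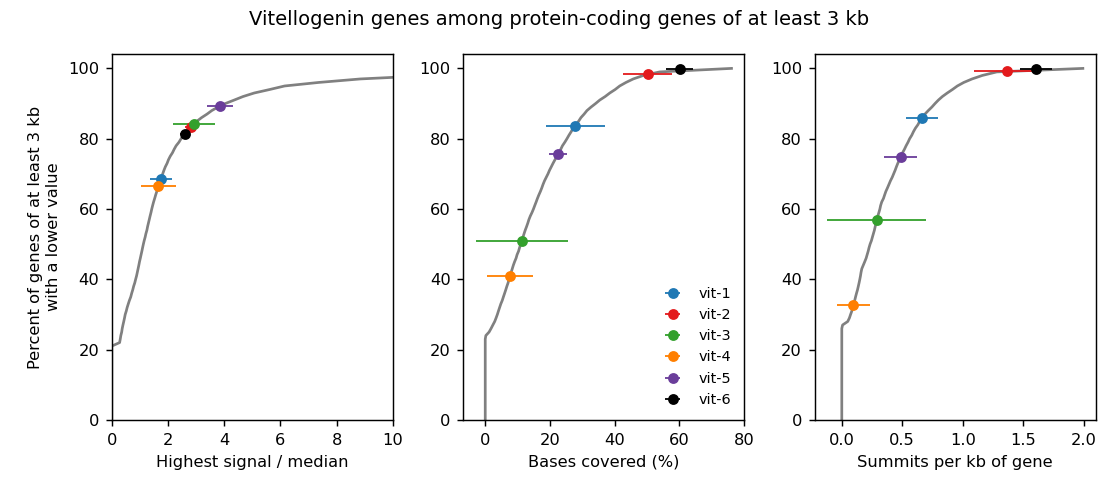
Vitellogenin genes among the 6432 protein-coding genes of at least 3 kb. Points are means of both replicates with SD bars (n = 2), the grey line is the distribution over all these genes, and the x axes show the highest relative signal (drawn up to 10), the percent of bases covered by candidate regions, and candidate summits per kb. By coverage and density vit-6 and vit-2 sit near the top, while by highest signal none of the 6 passes vit-5 at 3.85.

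The members differ in how much of their sequence is their own. The coding sequences of vit-3 and vit-4 were 99.0% identical (4761 of 4809 bases), those of vit-3 and vit-5 97.7%, and those of vit-4 and vit-5 97.8%. Between vit-1 and vit-2 identity was 94.0%, between these and vit-3 to vit-5 it was 69.4% to 70.2%, and vit-6 was 62.1% to 63.2% identical to each of the others. Of the 32-base words of vit-6, 100% occur once in the nuclear genome, against 77.6% of vit-1, 76.9% of vit-2, 39.4% of vit-5, 19.8% of vit-3 and 16.4% of vit-4. The median over genes of at least 3 kb was 99.1%, and 0.466% and 0.513% of them were as low as vit-4 and vit-3. In the body the share was 15.2% for vit-3 and 12.6% for vit-4, where each had 1 weak summit in 1 replicate. Within 100 bp of that summit it was 15.9% in vit-3 and 95.0% in vit-4. At the 3' end the share was 85.1% and 77.5%, and each had its strongest summit there. In vit-5 the share was 87.9% at the 5' end and lower, 70.3%, at the 3' end, where its strongest summit lay. The sources do not give how reads with several matches were treated. Mean densities were 0.289 per kb in vit-3 and 0.487 in vit-5, above the median of 0.234 over genes of at least 3 kb. That of vit-4, 0.0962, was below it. The counts of vit-3, vit-4 and vit-5 were lower than those of vit-2 and vit-6, and the part of shared sequence in this was not tested.

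Divided by the length of unique sequence, a measure chosen after the densities had been seen, the summits of both replicates came to 1.78 per kb in vit-2, 1.60 in vit-6, 1.46 in vit-3, 1.24 in vit-5, 0.855 in vit-1 and 0.585 in vit-4. The median of the 6 was 1.35, against 0.257 over 6405 genes with at least 10% unique words. All summits in a gene were counted, also those in repeated sequence. The division therefore raises the value most, by construction, in genes with the least unique sequence. The values of vit-3 (2.92 in replicate 2) and vit-4 (1.17 in replicate 2) rest on that replicate alone, since replicate 1 had 0 summits in either gene. On this scale 0.0937% of genes reached vit-2, 0.609% vit-3, 1.67% vit-5 and 20.5% vit-4.

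**Figure D4:**
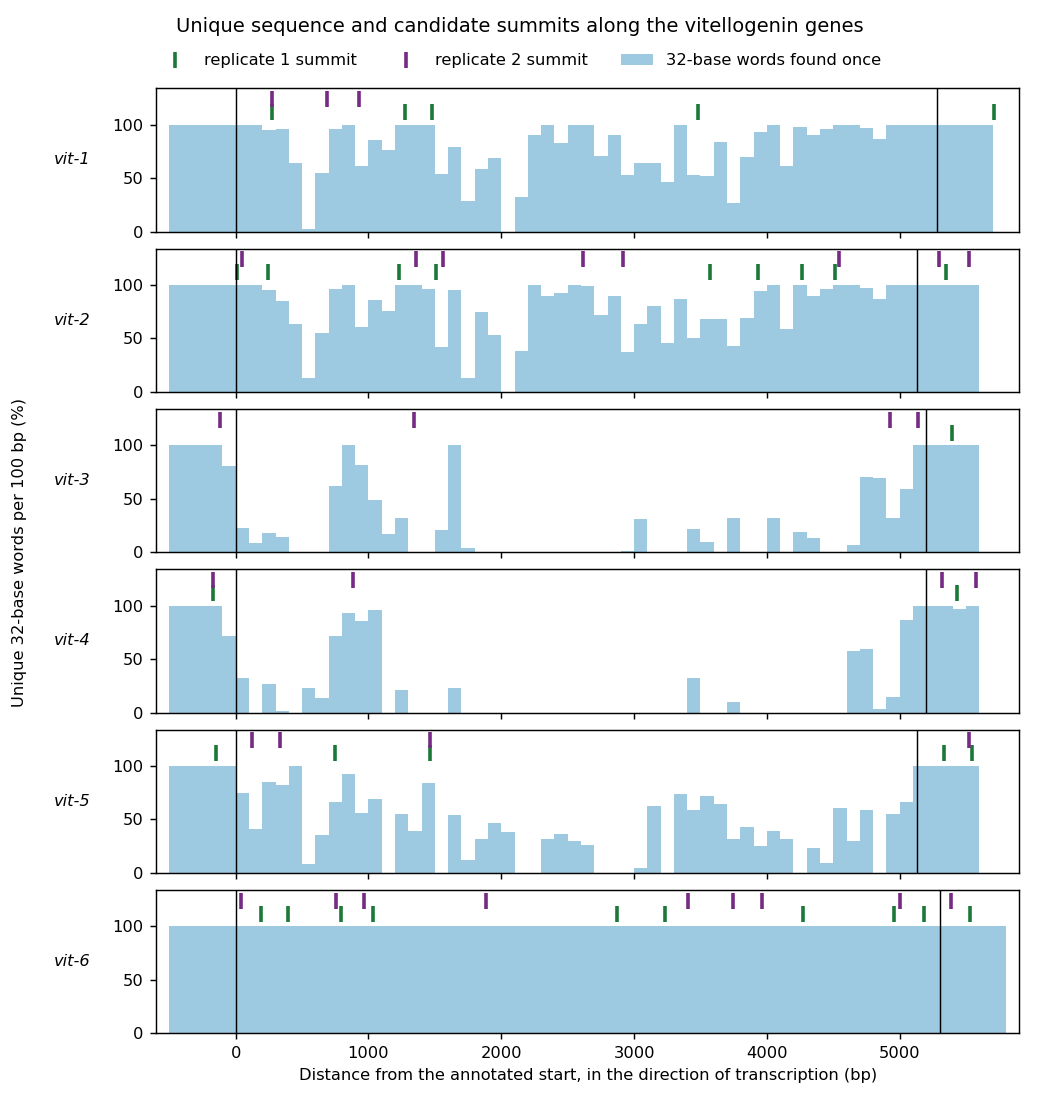
Share of 32-base words found once in the nuclear genome, in 100 bp bins along each vitellogenin gene. The x axis is the distance from the annotated start in bp, black lines mark the start and end of the gene, and ticks above the bars are candidate summits of replicates 1 and 2. Of the 32-base words of vit-3 and vit-4, 19.8% and 16.4% are unique, whereas vit-6 is unique throughout. The bodies of vit-3 and vit-4 hold 1 summit each, of replicate 2. Within 100 bp of these summits 15.9% and 95.0% of the words are unique.

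Along the gene, the mean profile of the 6 was highest at both ends. Summits downstream of vit-2 and vit-5, and in replicate 1 also those of vit-1 and vit-6, lie inside neighbouring genes. In the body, 15.2%, 12.6% and 34.5% of the 32-base words of vit-3, vit-4 and vit-5 occur once in the nuclear genome. The part of either in the profile was not tested. On the scale of log2(1 + relative signal), the mean of the 500 bp downstream was 1.68 in replicate 1 and 1.48 in replicate 2, against 0.53 and 0.54 over 4916 other genes of 3 to 8 kb. The first of 10 equal bins of the gene had means of 1.13 and 1.46 (others 0.46 and 0.47), and the last bin 1.28 and 1.04 (others 0.47 and 0.46). The fifth bin had 0.20 and 0.41, against 0.26 and 0.26 in other genes, so that the mean of the 6 was below that of other genes in replicate 1 and above it in replicate 2. The genes with profiles nearest to this mean, by Euclidean distance over 24 values (12 bins in each of 2 replicates), were B0001.4 at 1.57, ngp-1, a nucleolar GTPase gene, at 1.80, endu-2, an endoribonuclease gene, at 1.87, sec-5, an exocyst subunit gene, at 1.88, and hmp-1, the alpha-catenin gene, at 1.91, against a median of 4.04 over the other genes. The vit genes themselves were 2.21 to 3.55 from their own mean. That is nearer than the median of 4.04 and farther than these 5 genes, which were picked as the nearest of 4916.

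Genes that handle yolk or regulate the vit genes were described beside them, in lists chosen with earlier results of these data known. Of 11 genes of yolk uptake and lipid loading, 3 had a thresholded summit in the gene or within 500 bp (27.3%, against 12.7% of all protein-coding genes). These were rab-11.1, a recycling-endosome GTPase, with a relative signal of 5.51 ± 0.667, dpy-23, a subunit of the clathrin adaptor AP2, with 4.24 ± 0.119, and rme-2, the yolk receptor itself, with 4.08 ± 0.614 (SD, n = 2 each). Of 11 regulators of vit transcription, 4 had a thresholded summit (36.4%), among them lin-29 (4.14 ± 1.39), a zinc-finger factor of the larval to adult switch, and sgk-1 (4.11 ± 0.0448), a kinase of the insulin and TORC2 pathways (SD, n = 2 each). The median highest relative signal was 2.05 in the first of these lists and 2.50 in the second, against 2.71 for the vit genes and 0.626 over all protein-coding genes. Over genes of at least 3 kb the median was 1.12, and 18.0% of them had a thresholded summit. The lists were not matched for length: rab-11.1 is 1376 bp long and lin-29 17702 bp.

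Of 20 genes transcribed in the adult intestine, where the vit genes are transcribed, 1 had a thresholded summit (5.00%, against 12.7% of all protein-coding genes), the cysteine protease gene cpr-6, with a relative signal of 2.75 ± 0.781, and the median was 1.17, against 0.626 over all protein-coding genes. The next were cpr-1, another cysteine protease gene, at 2.64 ± 0.0301, and acdh-1, an acyl-CoA dehydrogenase gene, at 2.58 ± 0.540 (SD, n = 2 each). Of 15 genes of muscle and basement membrane, 2 had one (13.3%, close to the 12.7% of all protein-coding genes), the actin gene act-2 (4.58 ± 1.48) and the giant kinase gene unc-22 (2.83 ± 0.161; SD, n = 2 each), and the median was 1.42. The genes of a list differ in length, and no difference between lists was tested.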

How the data were processed

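SNPC-4 ChIP-seq of whole young adult worms was deposited by the authors as narrowPeak lists, in which the signal of each region is their peak score and the summit an offset from the region start. Per the deposited listing, candidate lists derive from the alignments of a replicate, or of both, and a control, and thresholding used all 3 candidate lists together. For the aligner, the caller, the read length and the threshold, a name or value is not given in the sources used here. Control reads were not analysed here. Only the ce11 lists were used.

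Genes came from the Ensembl release 115 annotation of WBcel235, the assembly of ce11, and sequence from the RefSeq genome of WBcel235; all genes and regions fell inside its chromosomes. Summits were placed with Python 3.11.15, numpy and pandas, checked on planted summits, and coding sequences were aligned with Biopython. A gene counted when a summit lay in it or within 500 bp. Zones were 500 bp to either side of the annotated start and end. Genes of at least 3 kb served for comparison. Means and SDs are over 2 replicates. No test was run, since there is 1 group.

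The named genes were the 6 members, their neighbours, the 5 nearest profiles and up to 3 members of each list with the strongest signal, of which not all are printed. The members and lists were chosen with earlier results of these data known. The alternatives were other distances and zones, region overlap, each replicate alone, a stricter threshold, another scaling, and, added after the data had been seen, summits outside other genes and unique sequence.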

Additional observations from a re-analysis of the deposited data

How the results depend on the processing

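The number of vit genes with a thresholded summit is given with the share of all protein-coding genes in brackets. It was 2 at 500 bp (12.7%), at 1000 bp (15.2%) and with any overlap of the region (13.8%). It was 1 at 250 bp (9.87%), 1 at 0 bp (4.61%) and 0 among the strongest 1475 summits of the list (6.48%). With summits inside another gene left out it was 1, for which the share over all genes is not given here. With 1 replicate left out, the strongest 2950 regions of the other were used. The number was then 1 without replicate 2 (12.2%) and 3 without replicate 1 (13.1%). The median highest relative signal of 2.71 became 1.66 with the gene alone and 0.776 after division by the median at IDR peaks, a change of scale, and of 18 single-gene values under alternatives that kept both replicates, 9 stayed within the spread between replicates and 9 moved by more (all 6 rescaled values, and vit-3, vit-4 and vit-5 with the gene alone). The number of genes strongest at the 5' end, in the body and at the 3' end was 2, 1 and 3. It was 1, 2 and 3 with zones of 250 bp, 3, 0 and 3 with zones of 1000 bp, and 5, 0 and 1 with the gene alone cut into 3 equal parts. With 1 replicate left out, the 5' end had 1 to 2 genes, the body 1 and the 3' end 3 to 4. Above the median signal alone, median coverage was 15.2% in place of 25.2% and median density 0.288 in place of 0.575 per kb. Density was 0.574 to 0.581 with 1 replicate left out and 1.35 per kb of unique sequence. Other than where the construction shows it, the cause was not tested. With 2 replicates and no read counts, differences between members within the replicate range cannot be told apart.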
